A study of Chlorella vulgaris with 6 samples.

Results

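Messenger RNA was compared among the mutant EMS-25, the mutant UV-715 and the wild type of the unicellular green alga Chlorella vulgaris, and 24 of 18600 assembled transcripts stood higher in EMS-25 while UV-715 and the wild type stayed close to each other. These 24 were chosen from the measured values. The mean of the 6 libraries had to reach 30. The lower EMS-25 library had to reach at least 1.5 times the highest of the 4 UV-715 and wild-type libraries. The UV-715 and wild-type means had to lie less than 25% apart, as the larger over the smaller. Values are a normalised expression signal that the authors had made comparable between libraries, with no unit named in the sources used here, and a transcript is 1 feature of an assembly whose identifiers have the form written by Trinity, a de novo assembler.

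EMS-25 is labelled an EMS mutant and UV-715 a UV mutant, and all 3 groups carry the strain background SAG 211-12 and have 2 libraries each. Ultraviolet light of 254 nm was applied to plated cells and single colonies were picked, per the labels' protocols, which describe no EMS treatment. Each mutagen is represented by 1 line. Cells of all 3 groups came from cultures of 5 ml that were 14 days old and in stationary phase, at an optical density of 5 at 680 nm, from an inoculum kept at 25 °C in a mineral medium under continuous light. Polyadenylated RNA was sequenced as read pairs of 75 bases. The libraries of a group are called biological replicates without further detail, so the spread behind each p-value is that of these libraries and may be technical.

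EMS, in mutagenesis usually ethyl methanesulfonate, alkylates guanine and leaves scattered point mutations, while ultraviolet light joins neighbouring pyrimidines, so lines made by either agent carry many unrelated changes. In stationary phase, green algae such as Chlorella divide little and store carbon as starch and as triacylglycerol in lipid droplets, and the series title calls the mutants high lipid producers. The features bear assembly identifiers and no gene names were used here. The 24 are therefore described by level, by strain and by what shares their place in the assembly, and no role is given to any of them. In RNA from a whole culture, more RNA in a fraction of the cells and more RNA in every cell cannot be told apart.

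The depth of the libraries is unknown, because the table holds scaled signals and no counts. Replicate 1 libraries listed between 1376 and 1485 features at 0 and replicate 2 libraries between 2826 and 4177. All 24 transcripts passed the filter of a signal of at least 1 in at least 2 libraries.

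Together the 24 transcripts carried more than 2 times the signal in EMS-25. They summed to 3535 and 3437 in EMS-25, against 1602 and 1500.4 in UV-715 and 1605 and 1570.3 in the wild type. The mean sum was 3486 ± 69.7 in EMS-25 (0.343% of all signal), 1551 ± 72.0 in UV-715 (0.158%) and 1587 ± 24.3 in the wild type (0.158%; SD, n = 2 each). These sums describe the choice and support nothing, since the same values chose the transcripts. Ranked by EMS-25 mean over all 18600 features, they stood between positions 467 and 3586. The mean over the 6 libraries ran from 30.2 to 215, with a median of 75.8.

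**Figure D1:**
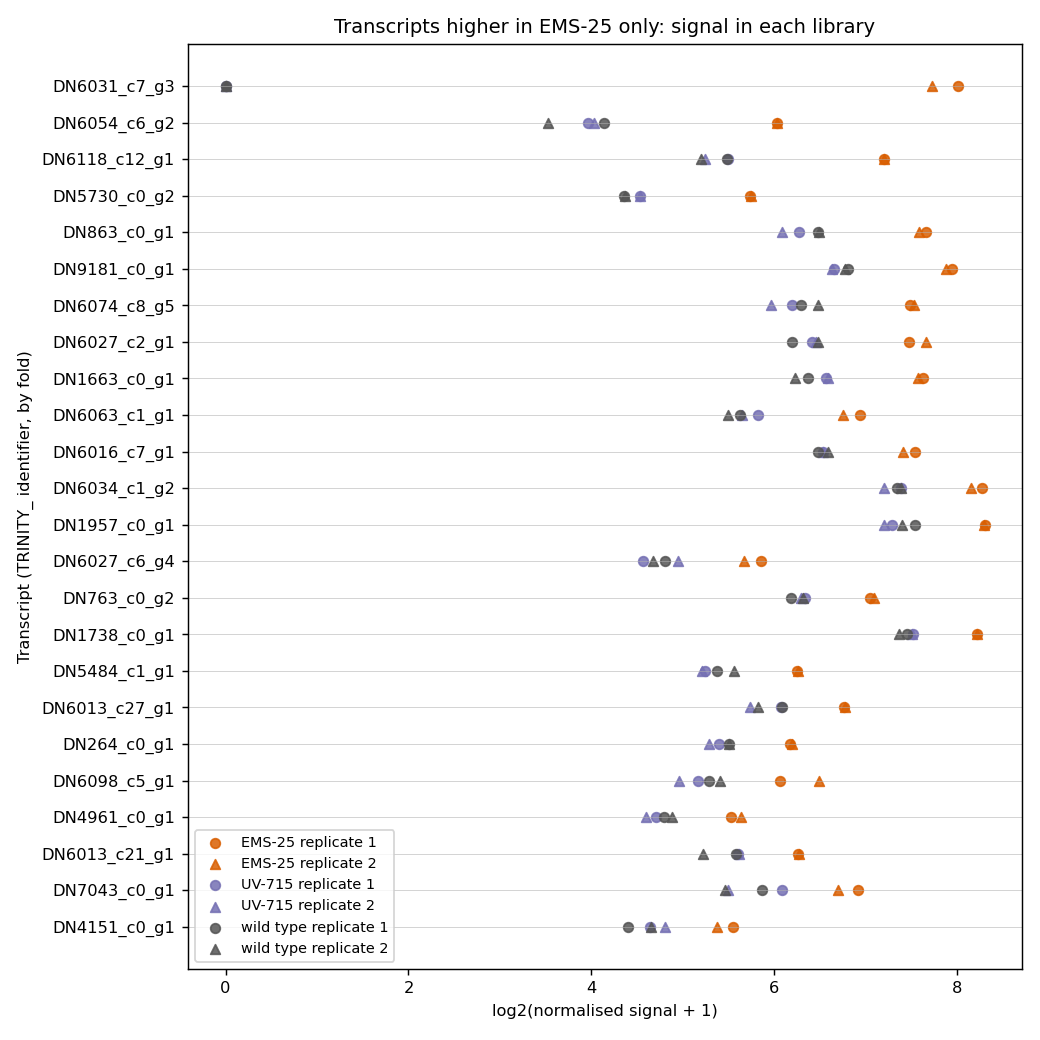
Normalised signal of the 24 transcripts in each of the 6 libraries, as log2 of the signal plus 1, ordered from the highest fold at the top; orange points are EMS-25, purple UV-715 and grey wild type, with circles for replicate 1 and triangles for replicate 2. Both EMS-25 points lie to the right of the other 4 in every row, as the choice requires, and TRINITY_DN6031_c7_g3 stands at 0 outside EMS-25.

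A single transcript of the 24 was seen in EMS-25 alone. TRINITY_DN6031_c7_g3 reached 256 and 209.7 in EMS-25, and all 4 libraries of UV-715 and the wild type listed it at 0. It passed the filter only through EMS-25, so it had to differ, and no fold is given against strains listed at 0. The other 23 had a signal above 0 in every library, so for these the EMS-25 value was a higher level of a transcript present in all 3 strains.

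The steepest of these 23 were a low and a moderate transcript. TRINITY_DN6054_c6_g2 had 64.5 and 64.2 in EMS-25, against 14.5 and 15.3 in UV-715 and 16.6 and 10.5 in the wild type. Its lower EMS-25 value was 3.88 times the highest of the other strains. TRINITY_DN6118_c12_g1 had 146 and 146 in EMS-25, against 44.2 and 36.7 in UV-715 and 43.7 and 35.7 in the wild type, a ratio of 3.30. Both EMS-25 libraries of each lay within 1 unit of signal of each other and far above the other strains, whose libraries overlapped.

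A further 5 transcripts reached a ratio between 2 and 3. TRINITY_DN5730_c0_g2 was the lowest of them, with 52.0 and 52.8 in EMS-25, 22.2 and 22.1 in UV-715 and 19.4 and 19.6 in the wild type. TRINITY_DN863_c0_g1 had 201 and 191 in EMS-25, 76.2 and 66.9 in UV-715 and 88.3 and 88.5 in the wild type. In this transcript UV-715 was also the lowest strain, near the limit set on how far UV-715 and the wild type may differ. TRINITY_DN9181_c0_g1 had 245 and 234 in EMS-25, 99.8 and 98.1 in UV-715 and 111 and 108 in the wild type. TRINITY_DN6074_c8_g5 had 177 and 184 in EMS-25, 72.4 and 61.6 in UV-715 and 77.6 and 87.9 in the wild type. In both of these, too, the UV-715 libraries lay below those of the wild type. TRINITY_DN6027_c2_g1 had 176 and 200.4 in EMS-25, against 84.2 and 86.9 in UV-715 and 72.0 and 88.1 in the wild type, where UV-715 and the wild type overlapped.

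The remaining 16 transcripts lay between 1.5 and 2 and include the most abundant ones. TRINITY_DN1738_c0_g1 had 296 and 297 in EMS-25, 182 and 180.2 in UV-715 and 173 and 163 in the wild type. TRINITY_DN1957_c0_g1 had 314 and 311 in EMS-25, 155 and 146 in UV-715 and 185 and 167 in the wild type. The order of UV-715 and the wild type was opposite in these transcripts, with UV-715 above the wild type in the first and below it in the second. TRINITY_DN6034_c1_g2 had 309 and 283 in EMS-25, 166 and 145 in UV-715 and 161 and 166 in the wild type. TRINITY_DN1663_c0_g1 had 197 and 189.7 in EMS-25, 93.6 and 95.2 in UV-715 and 81.8 and 73.8 in the wild type. UV-715 and the wild type overlapped in TRINITY_DN6034_c1_g2, while UV-715 lay above the wild type in TRINITY_DN1663_c0_g1. TRINITY_DN6016_c7_g1 had 185 and 169 in EMS-25, 91.5 and 91.8 in UV-715 and 87.9 and 94.9 in the wild type. Among those named here with a signal in every library, it was the one in which UV-715 and the wild type were closest.

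Of the named transcripts of lower level, TRINITY_DN6063_c1_g1 had 122 and 107 in EMS-25, 55.5 and 49.0 in UV-715 and 48.5 and 44.2 in the wild type. TRINITY_DN6027_c6_g4 had 56.7 and 50.0 in EMS-25, 22.7 and 29.8 in UV-715 and 26.9 and 24.6 in the wild type. It lies in the assembly cluster that also holds TRINITY_DN6027_c2_g1, and UV-715 and the wild type overlapped in it. The other 6, not described one by one, had between 44.98 and 135 in EMS-25, between 23.1 and 79.5 in UV-715 and between 26.7 and 78.6 in the wild type, with ratios from 1.59 to 1.65.

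Over the 23 transcripts with a signal everywhere, the log2 fold change of EMS-25 against UV-715 ran from 0.65 to 2.04 (median 1.03). Against the wild type it ran from 0.68 to 2.20 (median 0.95). Over all 18096 features tested the median was -0.01 against UV-715 and 0.01 against the wild type. The UV-715 mean was above the wild-type mean in 13 transcripts and below it in 10. The 2 EMS-25 libraries had no constant order either, with replicate 1 above replicate 2 in 13 of 24 and a ratio of the replicates between 0.739 and 1.22.

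The whole table was fitted in limma on the log2 of the signal plus 1, with a spread that may depend on the mean level (the intensity trend). In this fit 21 of the 24 passed a limma adjusted p of 0.05 as higher in EMS-25 than in UV-715 and 17 as higher than in the wild type. Of all features tested, 2.77% passed as higher in EMS-25 than in UV-715 (4.65% in either direction) and 0.779% as higher than in the wild type (1.15% in either direction). Since both comparisons were used to choose the transcripts, nothing is read from these counts. The counts also rest on single libraries. Leaving out EMS-25 replicate 1 gave 12 against UV-715 and 1 against the wild type, and leaving out EMS-25 replicate 2 gave 10 and 2. Leaving out UV-715 replicate 1 gave 17 against UV-715, and UV-715 replicate 2 gave 10, with 11 against the wild type in both cases. Leaving out wild type replicate 1 gave 14 against the wild type, and wild type replicate 2 gave 4, with 21 against UV-715 in both cases. In such fits a strain is left with a lone library, which is assumed to vary like the others.

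The limits cut through a continuous range of values. Among the 3168 features that met the limits on mean and on the distance between UV-715 and the wild type, EMS-25 lay above all 4 other libraries in 670 by any margin at all, in 57 by 1.3-fold, in 33 by 1.4-fold and in 24 by 1.5-fold. Just inside stood TRINITY_DN4151_c0_g1, with 45.8 and 40.4 in EMS-25, 23.9 and 26.9 in UV-715 and 20.2 and 24.1 in the wild type. TRINITY_DN7043_c0_g1 was next, with 120.0 and 102 in EMS-25, 66.8 and 44.1 in UV-715 and 57.2 and 42.9 in the wild type, followed by TRINITY_DN6013_c21_g1 with 75.5 and 76.0 in EMS-25, 47.6 and 47.9 in UV-715 and 47.0 and 36.2 in the wild type. In each of these the EMS-25 libraries stood clear of the others by a ratio of 1.503 to 1.58.

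Just outside, at ratios of 1.48 to 1.49, were TRINITY_DN7191_c0_g1, TRINITY_DN8122_c0_g1 and TRINITY_DN4798_c0_g1. The last of these had 129 and 129 in EMS-25, 86.8 and 81.1 in UV-715 and 69.6 and 66.7 in the wild type, again with both EMS-25 libraries above the other 4. TRINITY_DN6771_c0_g2 fell just short on level, with 62.5 and 36.9 in EMS-25, 19.0 and 16.1 in UV-715 and 14.0 and 16.4 in the wild type and a mean of 27.5. TRINITY_DN4197_c0_g1 fell just short on the distance between UV-715 and the wild type, which was 1.27-fold, with 58.1 and 63.0 in EMS-25, 24.9 and 27.8 in UV-715 and 33.2 and 33.9 in the wild type. Without that last limit 55 features would qualify. The same limits turned to the other strains give 77 transcripts higher in UV-715 only and 14 higher in wild type only. Turned to lower values, they give 12 lower in EMS-25 only and 82 lower in UV-715 only. No test was made between these numbers.

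**Figure D2:**
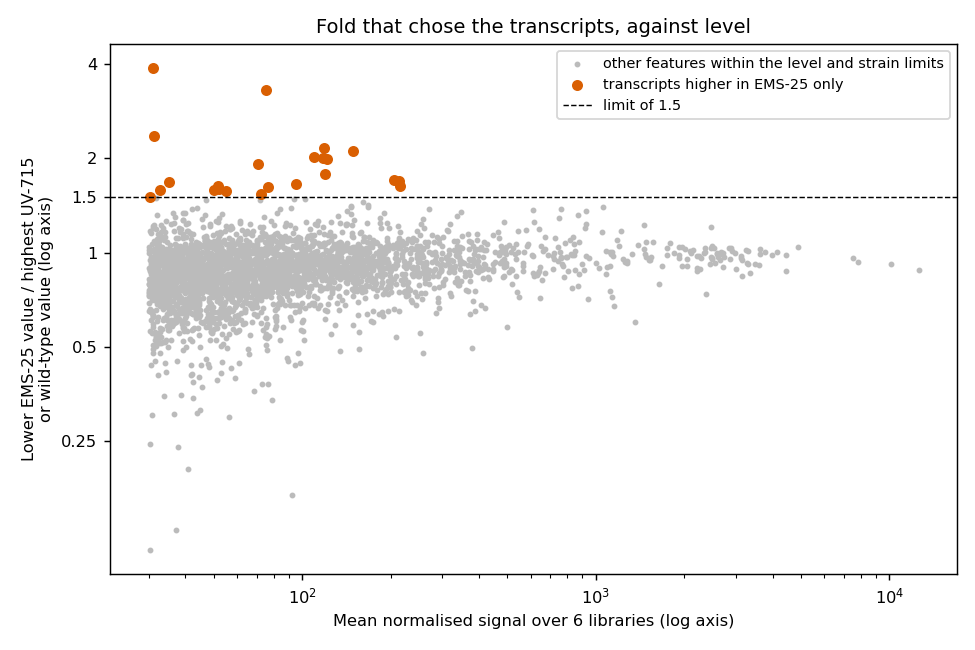
Ratio of the lower EMS-25 value to the highest of the 4 UV-715 and wild-type values (vertical log axis) against the mean normalised signal of the 6 libraries (horizontal log axis), for features within the limits on mean and on the distance between UV-715 and the wild type; the dashed line is the limit of 1.5. The 23 orange points with a finite ratio lie at means of 30.2 to 215 and grey points reach up to the line without a gap; TRINITY_DN6031_c7_g3, which has no finite ratio, and 3 features with a ratio of 0 are not drawn.

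What the choice did not use is the rest of the assembly around each transcript. An identifier names a cluster, a component (c) within it and a gene (g) within the component, in that order. Features of a component share sequence, as can features of a cluster, and they may be parts of a gene, alleles or relatives. Reads that match several of them have to be divided, so they are not independent measurements. The 24 transcripts lay in 24 components and 22 clusters. A component with at least 1 other feature held 13 of them (54.2%), against 33.3% of all features with a mean of at least 30. Of the other 11, 5 were alone in their cluster. These 5 were TRINITY_DN863_c0_g1, TRINITY_DN9181_c0_g1, TRINITY_DN264_c0_g1, TRINITY_DN7043_c0_g1 and TRINITY_DN4151_c0_g1, so no other feature of their cluster shares reads with them.

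Of the 24 components, 11 hold the chosen transcript alone, so their sum is the value that chose it. Of the 13 with several features, 10 met all 3 limits as sums. The chosen transcript made up between 38.2% and 100% of these 10 sums in EMS-25, so meeting the limits was in part fixed by the choice. The 3 that did not were the components of TRINITY_DN4961_c0_g1, TRINITY_DN6027_c6_g4 and TRINITY_DN6074_c8_g5. Summed over whole clusters, 7 of the 17 clusters with several features met the limits. In the 7 clusters of 12 to 59 features the totals differed by 1.02 to 1.46-fold between EMS-25 and UV-715 and by 1.06 to 1.27-fold between EMS-25 and the wild type.

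In some components the division among the features differed as well. TRINITY_DN6031_c7_g3 made up 65.9% of its component in EMS-25 and 0% in UV-715 and the wild type. Its neighbours in the component were present in all 3 strains. TRINITY_DN6031_c7_g2 had 42.2 and 44.05 in EMS-25, 59.6 and 52.6 in UV-715 and 45.8 and 36.9 in the wild type. TRINITY_DN6031_c7_g4 had 66.2 and 48.6 in EMS-25, 49.7 and 52.7 in UV-715 and 52.8 and 64.2 in the wild type. Neither of these, nor the lower TRINITY_DN6031_c7_g1, passed the test (limma adjusted p of at least 0.225), and TRINITY_DN6031_c7_g5 was listed at 0 throughout. TRINITY_DN6074_c8_g5 made up 53.5% of its component in EMS-25, 29.2% in UV-715 and 35.1% in the wild type. Its neighbour TRINITY_DN6074_c8_g1 had 50.3 and 44.2 in EMS-25, 66.4 and 53.9 in UV-715 and 63.5 and 58.7 in the wild type (limma adjusted p 0.256 against UV-715 and 0.317 against the wild type).

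The other features of these components were not used by the choice. There are 24 of them, of which 22 passed the filter and 2 were listed at 0 in every library. Against UV-715, 18 of 22 had a higher fitted value in EMS-25 and 3 were called, all higher (2.77% of all features were called higher). Against the wild type, 16 of 22 had a higher value and 2 were called, both higher (0.779% of all features). TRINITY_DN5730_c0_g1 and TRINITY_DN6027_c6_g1 were called in both comparisons, and TRINITY_DN6027_c6_g2 against UV-715. TRINITY_DN5730_c0_g1 passed the filter through EMS-25 alone and had to differ, which leaves 2 called against UV-715 and 1 against the wild type. The median log2 fold change of the 22 was 0.42 against UV-715 and 0.34 against the wild type, where all features had -0.01 and 0.01. These medians, and the counts of higher values, include TRINITY_DN5730_c0_g1. The share of all features with a higher value was not counted. They share reads and libraries with the chosen transcripts, and the part of the division of reads in this was not tested. The calls against UV-715 also rest on single libraries. With the filter applied again to the libraries left, they were lost without EMS-25 replicate 1 or without UV-715 replicate 2. With the features kept by all 6 libraries, a setting chosen after seeing the data, they were lost without any 1 library of EMS-25 or UV-715. The count against the wild type was 0 without any 1 of the 6 libraries.

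Cluster TRINITY_DN5730 held a feature with the same pattern as TRINITY_DN6031_c7_g3. TRINITY_DN5730_c0_g1 reached 51.2 and 64.1 in EMS-25, while UV-715 and the wild type listed it at 0. It missed the 24 only on level, since its mean over 6 libraries was 19.2. It too passed the filter through EMS-25 alone, so it had to differ, and no fold or test is given. In EMS-25 the chosen transcript TRINITY_DN5730_c0_g2 made up 47.8% of the component, against 100% in UV-715 and 100% in the wild type, and its own level was also higher. The component as a whole was 4.66 times as high in the lower EMS-25 library as in the highest of the others.

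All 9 features of cluster TRINITY_DN6054 had their highest mean in EMS-25. Besides TRINITY_DN6054_c6_g2 it has 8 features, and all 8 had a higher mean in EMS-25 than in either other strain. In 6 of the 8, both EMS-25 libraries exceeded all 4 others. Among the 3168 features within the limits on mean and on distance, 670 did so. Most of the 8 lie outside those limits, so that share is no background for them. The shares over all features, for this pattern and for the highest mean, were not counted, so nothing is read from these counts. TRINITY_DN6054_c6_g1 and TRINITY_DN6054_c6_g3, among these 6, share a component with the chosen transcript. Also among them are TRINITY_DN6054_c0_g1 and TRINITY_DN6054_c4_g1, which stood at 0 outside EMS-25. The sum of the 8, which leaves the chosen transcript out, was 454 and 442 in EMS-25, 208 and 174 in UV-715 and 209 and 245 in the wild type. Over the 6 that had a signal in the other strains as well, the sum was 379 and 396 in EMS-25, 208 and 174 in UV-715 and 209 and 245 in the wild type. No test was made over these 6. The test of the 8 also covers TRINITY_DN6054_c0_g1 and TRINITY_DN6054_c4_g1, which had a signal in EMS-25 alone. Part of the tested difference was therefore fixed in advance. The log2 fold change of all 8 together was 1.23 (SE 0.11) against UV-715 and 0.98 (SE 0.11) against the wild type, with limma adjusted p of 0.00225 and 0.0157 over all 10937 cluster sums tested. The call against UV-715 held without each of the 6 libraries in turn, with the filter applied again each time. Leaving out a library with the set of sums kept fixed was not tried. Without the intensity trend, the call against UV-715 ended (limma adjusted p 0.0513). The call against the wild type was lost when any 1 library of EMS-25 or the wild type was left out (adjusted p between 0.0565 and 0.122) and without the intensity trend (0.218).

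Within this cluster, TRINITY_DN6054_c5_g1 had the highest signal, with 207 and 197 in EMS-25, 87.6 and 81.2 in UV-715 and 128 and 118 in the wild type. It met the limits on ratio (1.54) and on mean (136). It missed only that on distance, with the UV-715 mean at 0.687 of the wild-type mean. Its groups did not overlap, and the limma adjusted p was 0.00159 against UV-715 and 0.0189 against the wild type. The call against UV-715 held without each library in turn, with the filter applied again, and ended without the intensity trend (limma adjusted p 0.0502). That against the wild type ended without the intensity trend (0.274) and when any 1 library other than wild type replicate 1 was left out (adjusted p between 0.0513 and 0.137). TRINITY_DN6054_c0_g1 reached 45.9 and 35.0 in EMS-25 and 0 in every library of UV-715 and the wild type. TRINITY_DN6054_c4_g1 had 29.3 and 11.7 in EMS-25 and 0 in the same 4 libraries. Both passed the filter through EMS-25 alone, so no fold or test is given for them.

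**Figure D3:**
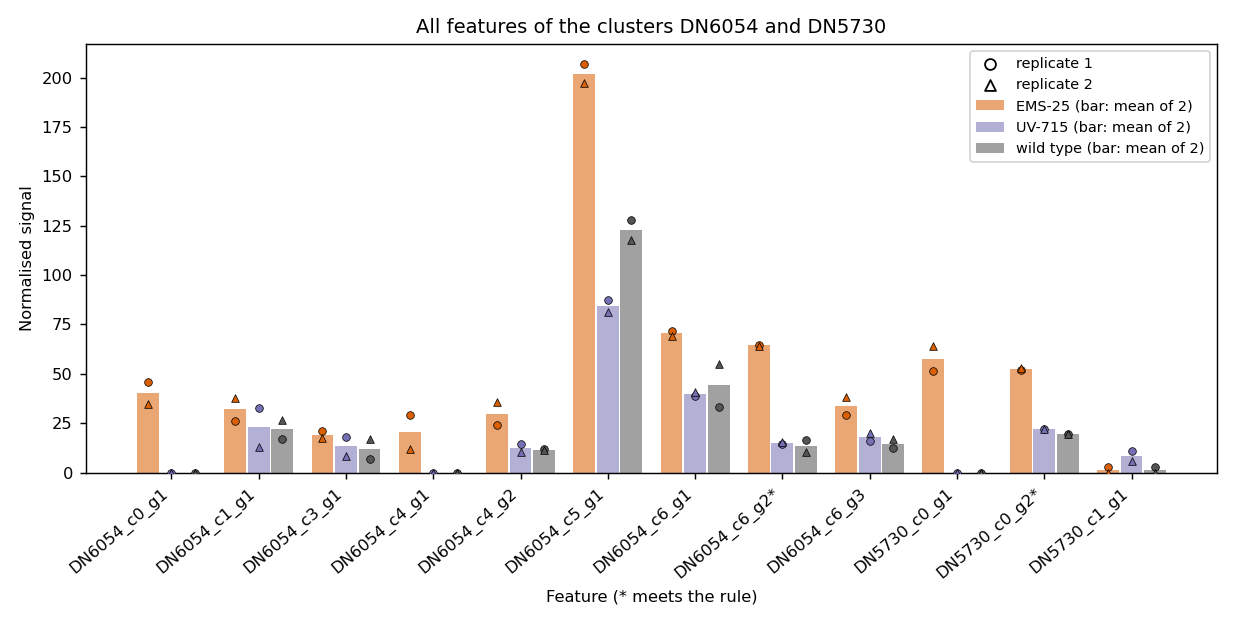
Normalised signal of every feature in the assembly clusters DN6054 (9 features, on the left) and DN5730 (3 features, on the right); bars are means of 2 libraries, orange EMS-25, purple UV-715 and grey wild type, and points are the libraries. EMS-25 bars are the highest in all features but DN5730_c1_g1, and 3 features (DN6054_c0_g1, DN6054_c4_g1 and DN5730_c0_g1) stand at 0 outside EMS-25; asterisks mark the transcripts that meet the limits.

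Cluster TRINITY_DN6027, which holds 2 of the 24, showed a mixed picture. The sum of its other 22 features was 1774 and 1716 in EMS-25, 1238 and 1262 in UV-715 and 1508 and 1399 in the wild type. EMS-25 was higher than UV-715 (log2 fold change 0.48, SE 0.05, limma adjusted p 0.00352), and against the wild type the difference of 0.26 did not pass (adjusted p 0.0664). The call against UV-715 ended without the intensity trend (0.126) and held without each library in turn. Component neighbours of TRINITY_DN6027_c6_g4 made up most of it. TRINITY_DN6027_c6_g2 had 685 and 675 in EMS-25, 509 and 504 in UV-715 and 572 and 539.5 in the wild type. TRINITY_DN6027_c6_g1 had 227 and 205 in EMS-25, 146 and 135 in UV-715 and 147 and 146 in the wild type. Both were above every other library in EMS-25, by less than the 1.5-fold asked for. Against UV-715 their limma adjusted p was 0.00706 and 0.0102, and both calls ended without the intensity trend, without EMS-25 replicate 1 and without UV-715 replicate 2, that of TRINITY_DN6027_c6_g2 also without EMS-25 replicate 2. Another feature was low in UV-715 and not high in EMS-25. TRINITY_DN6027_c16_g1 had 51.5 and 37.7 in EMS-25, 8.63 and 6.15 in UV-715 and 51.0 and 49.6 in the wild type (limma adjusted p 0.00501 against UV-715), so EMS-25 and the wild type overlapped.

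In the other 14 clusters with several features, the sum of the remaining features did not pass the test in either comparison (limma adjusted p of at least 0.192 against UV-715 and 0.189 against the wild type). Over all 17, 2 were called higher against UV-715 (4.17% of all cluster sums) and 2 against the wild type (1.06%). TRINITY_DN6054 and TRINITY_DN5730 were those called against the wild type. The sum of the other 2 features of TRINITY_DN5730 was 54.1 and 64.1 in EMS-25, 10.9 and 5.84 in UV-715 and 2.86 and 0 in the wild type (limma adjusted p 0.032 against the wild type). In EMS-25 that sum is almost all TRINITY_DN5730_c0_g1, which had to differ, so nothing is read from its call. That call ended when any 1 library other than wild type replicate 1 was left out (adjusted p between 0.0558 and 0.243), with a pseudocount of 0.1 (0.143), without the intensity trend (0.214) and with only the 2 strains in the fit (0.061). In the 6 clusters of 12 or more features other than TRINITY_DN6027, the log2 fold change of the rest lay between -0.06 and 0.01 against UV-715 and between -0.13 and 0.07 against the wild type. These 6 clusters hold TRINITY_DN6118_c12_g1, TRINITY_DN6031_c7_g3, TRINITY_DN6074_c8_g5, TRINITY_DN6016_c7_g1, TRINITY_DN6098_c5_g1 and the 2 transcripts of cluster TRINITY_DN6013.

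**Figure D4:**
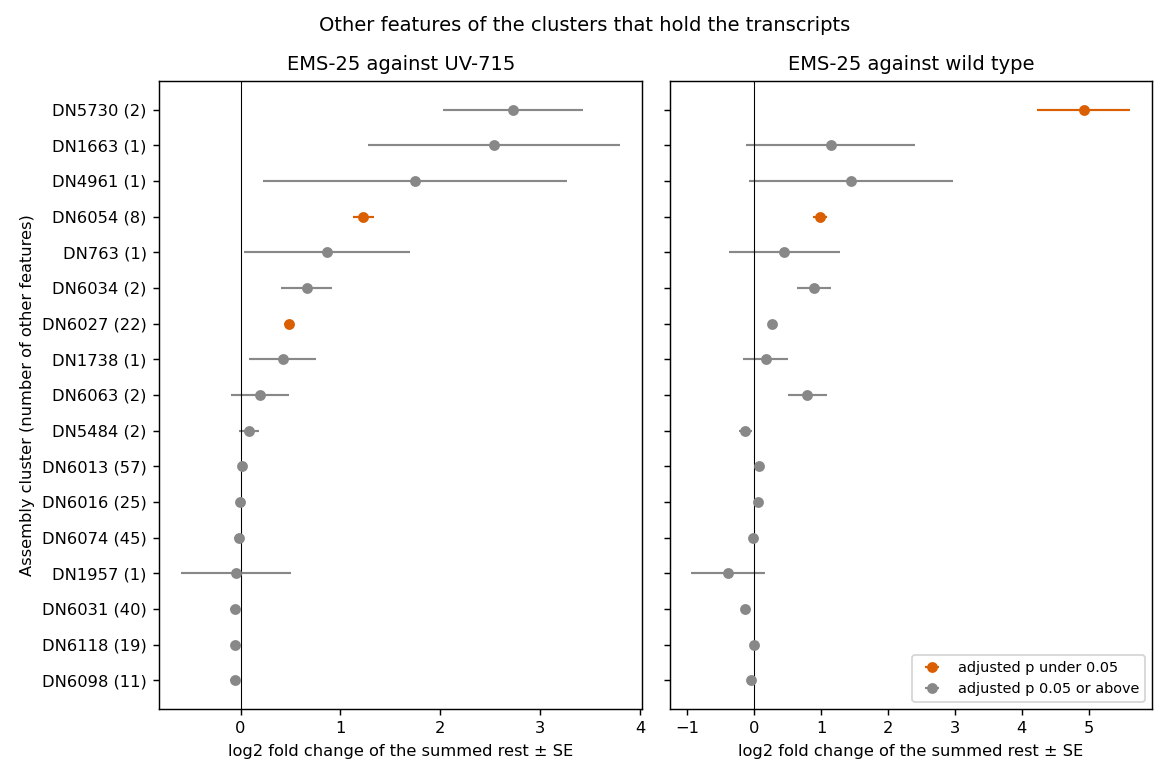
log2 fold change ± SE (limma) of the summed signal of all other features in each of the 17 assembly clusters that hold at least 1 of the transcripts and at least 1 other feature, for EMS-25 against UV-715 (left panel) and EMS-25 against wild type (right panel); orange points passed an adjusted p of 0.05 and the number of other features stands in parentheses. DN6054 passed in both panels, DN6027 in the left and DN5730 in the right, and the clusters with 11 or more other features, DN6027 aside, lie near 0.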

How the data were processed

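Polyadenylated RNA of 6 libraries (2 per strain) was analysed from 1 deposited table. Its values are a signal, which the authors put on a common scale before depositing it, as the table's name says. The unit behind that scale was not stated. FastQC 0.11.5, Trimmomatic 0.32, RSEM and edgeR are named, with no roles, per the submitters' processing notes. For assembly and annotation the sources used here give no tool. Library sums lay between 970974 and 1029717 and depth is unknown. Members and lists were chosen with earlier results of these data known, and cluster sums were added after the data were seen.

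The filter asked for a signal of 1 or more in 2 or more libraries, and left out 504 of 18600 features. The log2 of the signal plus 1, which understates changes of low features, was fitted in limma 3.58.1 (R 4.3.3) with an intensity trend, 3 residual and 2.66 prior degrees of freedom, and strain as the only term, over all 6 libraries. Tests were two-sided with Benjamini-Hochberg adjustment over all features, or over all sums. The fit was tested on simulated data. Transcripts named were the 8 with the highest ratio, the 8 with the highest mean, the 3 nearest the limit on either side, and those of the 6 components whose other features changed most. Others named were chosen after their values were seen. Python 3.11.15 with pandas 2.3.3 was used otherwise.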

Additional observations from a re-analysis of the deposited data

Results flagged for a closer look

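The effect of the mutants against the wild type differed, as tested directly between the mutants, for 6 features and 2 cluster sums that share a component or cluster with the 24 transcripts and were not used to choose them. Single features were looked through only in the components of the 24 and in clusters TRINITY_DN6054, TRINITY_DN6027 and TRINITY_DN5730. These clusters have 8, 22 and 2 other features and were picked after their values were seen. Features at 0 outside EMS-25 were left out as single features but remain in the cluster sums. Of all features tested, 4.65% passed a limma adjusted p of 0.05 against UV-715 in either direction. The log2 fold changes of EMS-25 over UV-715 (limma, adjusted over all features) included 1.24998 for TRINITY_DN6054_c5_g1 (adjusted p 0.00159). In cluster TRINITY_DN6027 they were 2.44 for TRINITY_DN6027_c16_g1 (adjusted p 0.00501), 1.39 for TRINITY_DN6027_c8_g1 (0.0491), 1.11 for TRINITY_DN6027_c10_g1 (0.0112), 0.61 for TRINITY_DN6027_c6_g1 (0.0102) and 0.42 for TRINITY_DN6027_c6_g2 (0.00706). The cluster sums without the chosen transcripts had 1.23 for TRINITY_DN6054 (limma adjusted p 0.00225) and 0.48 for TRINITY_DN6027 (0.00352). That of TRINITY_DN6054 includes TRINITY_DN6054_c0_g1 and TRINITY_DN6054_c4_g1, which had a signal in EMS-25 alone. Part of its difference was therefore fixed in advance, and the sum without these features was not tested. The values of TRINITY_DN6027_c8_g1 were 29.4 and 46.5 in EMS-25, 12.6 and 14.3 in UV-715 and 28.7 and 37.7 in the wild type, and its call was lost when any 1 library was left out. TRINITY_DN6027_c10_g1 had 67.8 and 54.5 in EMS-25, 25.8 and 29.5 in UV-715 and 94.4 and 94.1 in the wild type, with EMS-25 between the others, and its call was lost without EMS-25 replicate 1 and without either library of UV-715. In each, both EMS-25 libraries lay above both UV-715 libraries. With 2 libraries per strain, single libraries that stand apart from the rest of a group could not be looked for.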

How the results depend on the processing

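Under the settings tried, every log2 fold change of the named transcripts kept its sign. The choice had fixed this, since it asked both EMS-25 libraries to lie above all others, so nothing is read from it. Among the 17 with a signal in every library they moved by at most 0.31. With 1 library left out, 58 of 212 comparisons of the named transcripts lost their call, and with other settings 27 of 252. Features called against the wild type numbered 208, and 479 when only features with a mean of at least 30 were tested, 58 without the intensity trend, 85 with only the 2 strains compared in the fit, and between 22 and 144 without 1 library. Against UV-715 they numbered 841 (501 higher, 340 lower), 252 without the trend (101 higher, 151 lower) and between 245 and 743 without 1 library. Of the 24 transcripts, 1 was called against the wild type and 5 against UV-715 without the trend, and between 1 and 14 and between 10 and 21 without 1 library. With the features kept by all 6 libraries, a setting chosen after seeing the data, leaving out 1 library gave 0 to 36 features and 0 to 6 of the transcripts against the wild type, and 25 to 624 and 2 to 19 against UV-715. The features called against UV-715 were then 129 and 130 without EMS-25 replicate 1 and 2, and 31 and 25 without UV-715 replicate 1 and 2.

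Component neighbours called against the wild type numbered 1 with a pseudocount of 0.1, with no filter, without the trend, with the replicate block and with only the 2 strains, and 0 without any 1 library. Against UV-715 there was 1 without the trend and between 0 and 4 without 1 library. Cluster sums called against the wild type numbered 1 with a pseudocount of 0.1 or only the 2 strains, 0 without the trend and between 0 and 1 without 1 library. Against UV-715 there were 0 without the trend and between 2 and 3 without 1 library. The number of transcripts chosen was 8 at a ratio of 2, 44 at a mean of 10, 9 at a mean of 100 and 55 with no limit between UV-715 and the wild type. It was 23 with libraries set to the same sum, of which 22 were among the 24, and 27 to 33 without 1 library. Component sums that met the limits numbered 6 at a ratio of 2, 10 at a mean of 100 and 17 to 20 without 1 library.

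Replicate numbers pair the libraries only by number. Deviations of replicate 1 from the strain mean correlated at 0.04 to 0.07 over all features kept and at 0.34 to 0.43 over the 1610 with a mean of at least 100. The replicate block gave 172 features and 16 of the transcripts against the wild type, and 712 and 21 against UV-715, with 2 cluster sums in each. TRINITY_DN5730_c0_g1 and TRINITY_DN6054_c0_g1 stood at 0 outside EMS-25 and had to differ, so nothing is read from their tests. Their calls against the wild type were lost with the block and with a pseudocount of 0.1. Causes of these differences were not tested, and an unknown depth limits the low features.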

Other observations

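The on-off pattern of TRINITY_DN6031_c7_g3 recurred below the level limit. In the whole table, 6 features had at least 20 in both EMS-25 libraries and stood at 0 in every other library, with that level chosen once the values were known. TRINITY_DN6031_c7_g3 is itself 1 of the 24 transcripts. TRINITY_DN5730_c0_g1 and TRINITY_DN6054_c0_g1 each lay in a cluster that holds 1 of the 24. The others were TRINITY_DN3305_c0_g1, with 68.3 and 65.9 in EMS-25, TRINITY_DN4302_c1_g1, with 21.0 and 31.6, and TRINITY_DN5189_c0_g2, with 21.8 and 22.1. The share of all features in clusters that hold 1 of the 24, and the same pattern in UV-715 or the wild type, were not counted. A value listed at 0 is not a proof of absence at an unknown depth.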
